A study of Mus musculus with 16 samples.

Results

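Muscle and liver miRNAs were examined in the mouse prefrontal cortex, a tissue for which none of them is known as a typical miRNA, to ask how much of each was measured there and whether the level differed with tauopathy. The set was given by name and held 5 mature miRNAs, namely mmu-miR-1a-3p, mmu-miR-133a-3p, mmu-miR-133b-3p, mmu-miR-206-3p and mmu-miR-122-5p (written without the species prefix from here on), and all 5 had a row among the 18488 features of the small RNA table, of which 1241 were mature miRNAs. Libraries came from 16 mice, 8 of genotype PS19+/- and 8 WT littermates on the same mixed C57BL/6 and C3H background, at a single age and with both sexes in each group. PS19 mice carry a human P301S tau transgene under the mouse prion protein promoter, whose activity is not restricted to neurons, and WT mice carry none. All mice had been perfused with PBS before the brain was taken, and RNA was isolated from 10 mg of frozen prefrontal cortex. Each library had between 13.2 M and 23.1 M recovered reads, and mature miRNAs held 14.8% to 32.0% of them. Library codes opened with G in all 8 PS19 libraries but in only 2 WT ones, the other WT codes opening with F (4) or A (2), and what the letter means is not given in the sources used here.

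A miRNA is a short RNA that guides a silencing complex to messenger RNAs, which it recognises mainly through its seed, bases 2 to 8 counted from the 5′ end. miR-1 and the miR-133 family are made from shared transcripts in heart and skeletal muscle, where miR-1 favours differentiation of muscle cells. miR-206 and miR-133b come from a further shared transcript of skeletal muscle, and miR-206 is known for its part at the neuromuscular junction. miR-206-3p belongs to the same seed family as miR-1a-3p, and miR-133b-3p to that of miR-133a-3p, from which it differs only at its 3′ end. miR-122-5p is the dominant miRNA of hepatocytes and also circulates in plasma. In bulk tissue, fewer cells of a type and less RNA per cell cannot be told apart.

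RefSeq (GRCm38.p6) gave the mature sequence of 2 of the 5, which are shown because they stand for both seed families of the muscle miRNAs. The seed is in capitals, 5′ to 3′.
mmu-miR-206-3p: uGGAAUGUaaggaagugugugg
mmu-miR-133b-3p: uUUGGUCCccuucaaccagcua
Mature miR-206-3p lies at chr1:20679055-20679076 and mature miR-133b-3p at chr1:20682834-20682855, both on the plus strand. The hairpins Mir206 (chr1:20679010-20679082) and Mir133b (chr1:20682769-20682887) are 3686 bases apart, and in GENCODE an exon of the non-coding gene Gm28653, on the same strand, overlaps each. Both hairpins are given with the mature arms in capitals, since the 5′ arm of each hairpin had no row in the table while the 3′ arm did.
Mir206: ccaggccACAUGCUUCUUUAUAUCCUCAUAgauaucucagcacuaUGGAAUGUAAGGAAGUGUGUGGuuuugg
Mir133b: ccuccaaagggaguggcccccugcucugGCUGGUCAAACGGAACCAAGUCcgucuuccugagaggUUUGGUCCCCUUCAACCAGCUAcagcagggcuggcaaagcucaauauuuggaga
The hairpins Mir1a-1 (chr2:180389048-180389124) and Mir133a-2 (chr2:180398379-180398482) lie 9254 bases apart within the span of the RefSeq host gene Mir1a-1hg (chr2:180385604-180401802). miR-1a-3p and miR-133a-3p each also have a further locus.

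The 5 miRNAs differed widely in abundance, and each had reads in at least 15 of 16 libraries. Values are normalized counts, which are read counts divided by a size factor for each library. The mean over the 16 libraries was 6575 ± 3354 (SD) for mmu-miR-1a-3p, which ranked 58th among the 1241 mature miRNAs. mmu-miR-206-3p averaged 479.97 ± 526 (SD, n = 16) and ranked 153rd, and mmu-miR-122-5p averaged 272 ± 134 (SD, n = 16) and ranked 192nd. mmu-miR-133a-3p averaged only 15.4 ± 12.3 (SD, n = 16) at rank 402, and mmu-miR-133b-3p 3.33 ± 2.34 (SD, n = 16) at rank 569. As a share of mature miRNA reads these levels were 1461 ± 515, 97.2 ± 75.8, 62.7 ± 25.2, 3.36 ± 2.07 and 0.726 ± 0.432 per 1000000 reads (SD, n = 16), in the same order. Mature miRNAs are of nearly the same length, so that levels were compared without scaling to length, but capture of a miRNA during library preparation depends on its sequence, so that a ratio between miRNAs need not be a ratio of molecules.

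Neighbours in this order were compared within libraries. miR-1a-3p exceeded miR-206-3p in 16 of 16 libraries, by 4.20 ± 1.37 (SD) on the log2(normalized count + 1) scale (two-sided exact sign-flip permutation test, p = 3.05e-05, adjusted p = 6.1e-05 over 4 pairs). miR-206-3p and miR-122-5p could not be ordered, since miR-206-3p was the higher in 9 of 16 libraries and the mean difference was 0.33 ± 0.95 (SD, same exact test, p = 0.187, adjusted p = 0.187). miR-122-5p exceeded miR-133a-3p in 16 of 16 libraries by 4.25 ± 1.08 (SD, same exact test, adjusted p = 6.1e-05). miR-133a-3p exceeded miR-133b-3p in 15 of 16 libraries by 1.81 ± 0.83 (SD, same exact test, adjusted p = 8.14e-05), and PS19 replicate 6 was the exception. The smallest p that sign flips over 16 libraries can give is 3.05e-05.

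**Figure D1:**
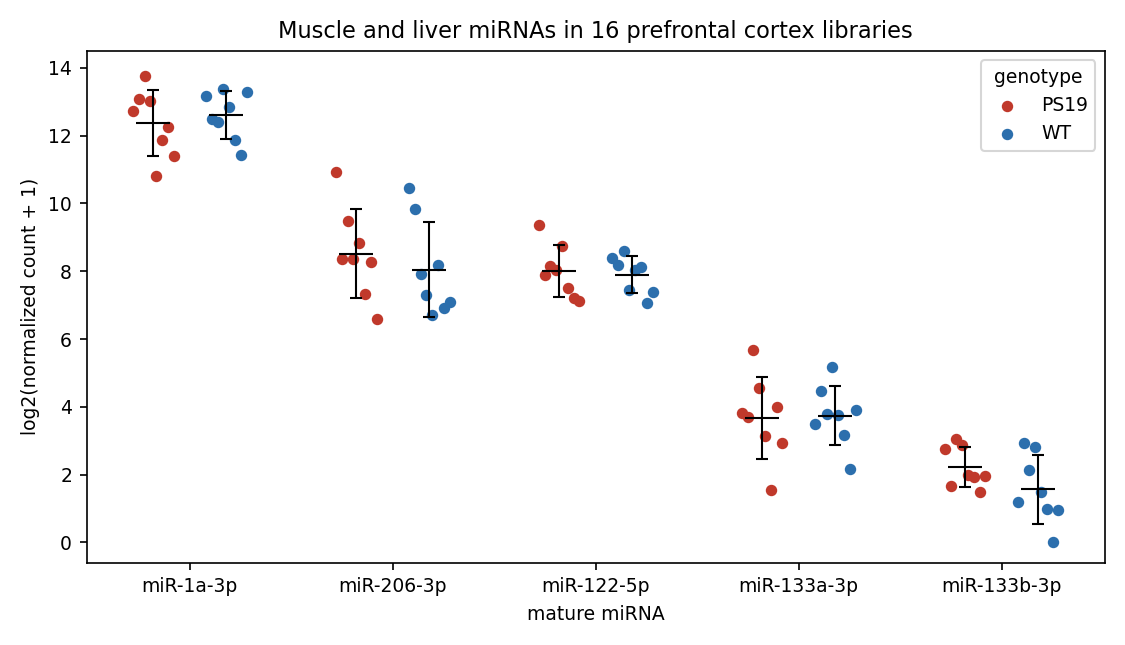
Level of the 5 miRNAs as log2(normalized count + 1) in 8 PS19 (red) and 8 WT (blue) libraries. Each point is 1 library, the horizontal bar is the mean and the whiskers are the SD. The PS19 and WT points overlap for each miRNA, and the levels fall in 4 tiers, with miR-206-3p and miR-122-5p in the same one.

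Partners of 1 transcript were measured at very different levels. miR-1a-3p had 427 times the mean of miR-133a-3p, and the ratio of their reads ranged from 228 in PS19 replicate 5 to 1954 in PS19 replicate 6, where miR-133a-3p rested on 2 reads. The median ratio was 389.6 in PS19 and 528 in WT, and the ranges of 228 to 1954 and 276 to 894 overlapped. miR-206-3p had 144 times the mean of miR-133b-3p, with a ratio between 25.8 in WT replicate 4 and 1090.0 in WT replicate 1 over the 15 libraries in which miR-133b-3p had a read. Set beside the brain miRNAs, miR-124-3p, the miRNA most typical of neurons, averaged 11714 and was above miR-1a-3p in 16 of 16 libraries, by a ratio of reads of only 1.28 to 3.74. In the same libraries the neuronal miR-128-3p averaged 486403.

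No difference with genotype was detected for any of the 5. At an adjusted p under 0.05 limma called 0 of the 4 that passed the filter (a mean of at least 5), and edgeR and DESeq2 on recovered reads also called 0 of 4. At an unadjusted p under 0.05 each of the 3 tools again called 0 of 4, where limma called 241 of 6024 features (4.0%) and 15 of 521 mature miRNAs (2.88%). At an adjusted p the count over all features was 0 (0.0%) by limma, 0 by edgeR and 15 by DESeq2. The median difference on the log2 scale was 0.01 over the 4 miRNAs, -0.13 over the 521 mature miRNAs and -0.02 over all features tested.

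miR-1a-3p ranged from 1791 in PS19 replicate 5 to 13873 in PS19 replicate 3, with a median of 5793. In WT it ranged from 2744 in replicate 7 to 10497 in replicate 4, with a median of 6558. Both the lowest and the highest library were PS19, so that the WT range lay within the PS19 range. The PS19 mean was 6317 ± 3941 and the WT mean 6832 ± 2904 (SD, n = 8 each). The difference was -0.24 ± 0.37 (SE, log2(normalized count + 1), PS19 minus WT), with a 95% interval of -1.01 to 0.52 (limma, adjusted p = 0.9998; two-sided exact permutation test, p = 0.569). This interval leaves room for a level in PS19 between 0.497 and 1.43 times that in WT. Within the libraries of code letter G the difference was -0.57 (two-sided exact permutation test, 8 against 2, p = 0.467).

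miR-206-3p, of the same seed family, ranged from 95.1 in PS19 replicate 8 to 1950.3 in replicate 1, with a median of 327. In WT it ranged from 102 in replicate 5 to 1397 in replicate 1, with a median of 199. PS19 replicate 1 was far above the next PS19 library (707), WT replicates 1 and 2 (908) were far above the other WT libraries (at most 292), and the WT range again lay within that of PS19. The means were 541 ± 599 (SD, n = 8) and 419 ± 475 (SD, n = 8). The difference of 0.47 ± 0.57 (SE) had a 95% interval of -0.71 to 1.65 on the log2 scale (limma, adjusted p = 0.9998; exact permutation test, p = 0.497). It was 0.12 without PS19 replicate 1 and 0.81 without WT replicate 1. Within the libraries of code letter G it was -0.05 (two-sided exact permutation test, 8 against 2, p = 0.978), so that the sign was not kept.

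miR-133a-3p was covered by 2 to 35 reads per library. It ranged from 1.90 in PS19 replicate 6 to 50.6 in PS19 replicate 3, with a median of 12.5, and in WT from 3.54 in replicate 7 to 35.2 in replicate 4, with a median of 12.7. The medians were nearly equal, and the WT range lay within the PS19 range. The PS19 mean was 16.2 ± 15.2 and the WT mean 14.7 ± 9.69 (SD, n = 8 each). The difference of -0.07 ± 0.46 (SE, log2 scale) had a 95% interval of -1.04 to 0.89 (limma, adjusted p = 0.9998; exact permutation test, p = 0.892). Its sign turned with edgeR (0.13), with DESeq2 (0.12) and without single libraries, and within code letter G the difference was -1.15 (two-sided exact permutation test, p = 0.244).

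miR-133b-3p was near the limit of detection, with 30 reads in all 8 PS19 libraries and 22 in all 8 WT libraries. It ranged from 1.78 in PS19 replicate 7 to 7.23 in PS19 replicate 3, with a median of 2.94. In WT it was 0 in replicate 7 and reached 6.66 in replicate 2, with a median of 1.53. The 0 in WT replicate 7 allows a level of up to 2.12 normalized counts (3 reads), or 0.950 per 1000000 mature miRNA reads, and such limits cover counting error only. All 8 PS19 libraries were above the WT median, and yet WT replicates 2 and 4 were among the 4 highest of the 16. The means of 4.02 ± 2.12 (SD, n = 8) and 2.64 ± 2.49 (SD, n = 8) gave a difference of 0.65 on the log2(normalized count + 1) scale (two-sided exact permutation test over 12870 splits, p = 0.136), which was not tested by limma because the mean fell below the filter. Scaled to the mature miRNA total the same exact test gave p = 0.0476, and without WT replicate 2 it gave p = 0.0490 with a difference of 0.85. With a pseudocount of 5 in place of 1 the difference was 0.27 (exact permutation test, p = 0.187), and with 0.5 it was 0.83. Within code letter G the difference turned to -0.66 (exact permutation test, p = 0.289). A difference between genotypes could not be settled at this depth.

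miR-122-5p, the hepatocyte miRNA, ranged from 138 in PS19 replicate 8 to 654 in PS19 replicate 1, with a median of 248. In WT it ranged from 132 in replicate 7 to 387 in replicate 3, with a median of 269.7. PS19 replicates 1 and 5 lay above all WT libraries, and the other PS19 libraries lay within the WT range. The PS19 mean was 291 ± 174 and the WT mean 252 ± 88.0 (SD, n = 8 each). The difference of 0.10 ± 0.31 (SE, log2 scale) had the narrowest interval of the 4, from -0.54 to 0.74, or 0.688 to 1.67 times the WT level (limma, adjusted p = 0.9998; exact permutation test, p = 0.767). Without PS19 replicate 1 it was -0.09.

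**Figure D2:**
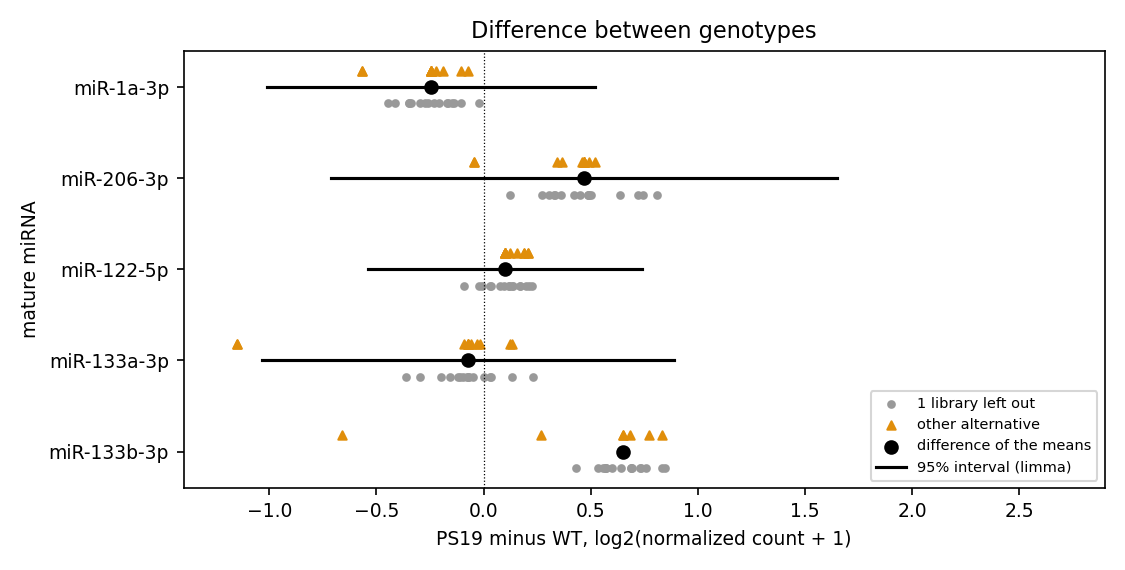
Difference between PS19 and WT for each miRNA on the log2(normalized count + 1) scale. Black points are the differences of the means, black lines 95% intervals from limma (none for miR-133b-3p), grey points the values with 1 library left out and orange triangles the other alternatives. All 4 intervals include 0, and the alternatives lie on both sides of 0 for miR-206-3p, miR-122-5p, miR-133a-3p and miR-133b-3p.

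The letter of the library code and the genotype can hardly be told apart, since only 2 WT libraries shared the letter of the PS19 libraries. Exact tests within that letter draw on 45 splits and cannot give a p below 0.0222.

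The 5 miRNAs differed in how much they varied between libraries. The SD of log2(normalized count + 1) over the 16 libraries was 1.33 for miR-206-3p, larger than for 95.8% of the other 520 mature miRNAs with a mean of at least 5, whose median over all 521 was 0.70. It was 1.03 for miR-133a-3p (89.8%), 0.87 for miR-133b-3p (76.8% of 521), 0.83 for miR-1a-3p (71.5%) and 0.64 for miR-122-5p (34.6%). On the scale of the mature miRNA total, miR-206-3p was still above 94.0% and miR-122-5p above 50.6%. The variance of the normalized count was 491 times that of counting reads for miR-206-3p, 1606 times for miR-1a-3p and 62.3 times for miR-122-5p, but 9.16 times for miR-133a-3p and 1.53 times for miR-133b-3p. The order of these ratios followed that of the mean levels, and so of the reads behind each miRNA.

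**Figure D3:**
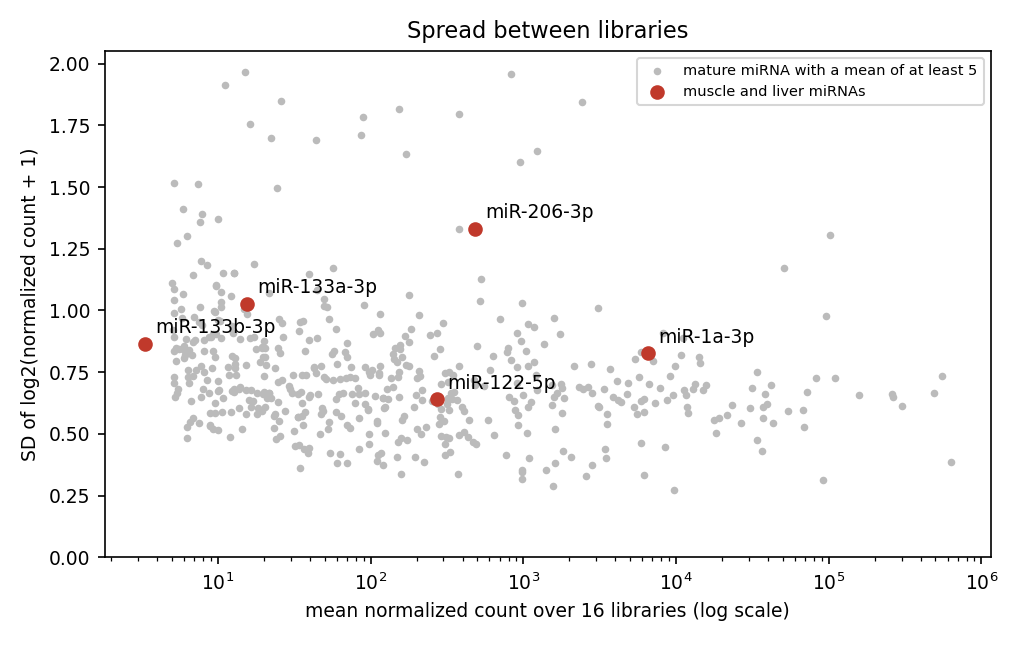
SD of log2(normalized count + 1) against the mean normalized count (log axis) over 16 libraries. Grey points are the 521 mature miRNAs with a mean of at least 5, members of the set among them, and red points the 5 muscle and liver miRNAs. miR-206-3p, at 1.33, stands near the top of the cloud, and miR-122-5p, at 0.64, in its middle.

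Joint variation was described over the 16 libraries for the 10 pairs of miRNAs, and for each miRNA with a red blood cell list and with recovered reads, 20 relations in all. miR-1a-3p and miR-133a-3p, from shared transcripts, varied together (Pearson r = 0.73, permutation p = 0.00107, adjusted p = 0.0107; Spearman rho = 0.73, permutation p = 0.00181, adjusted p = 0.0181). Without the 2 libraries farthest from the median r was 0.79 (permutation test, adjusted p = 0.0122) but rho, at 0.64, no longer passed (adjusted p = 0.162). Within PS19 and within WT r was 0.73 and 0.75. Within code letter G (n = 10) r was 0.76 (permutation test, adjusted p = 0.0719) and rho 0.79 (adjusted p = 0.0498). Scaled to the library total r was 0.69 (permutation test, adjusted p = 0.0328) and rho 0.72 (adjusted p = 0.0223). On the mature miRNA total r was 0.56 (permutation test, adjusted p = 0.197), while rho, at 0.69, still passed (adjusted p = 0.0425). On the deposited values PS19 replicate 3 held the highest value of both. The lowest miR-1a-3p was in PS19 replicate 5 and the lowest miR-133a-3p in PS19 replicate 6.

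miR-206-3p and miR-122-5p, of different tissues and chromosomes, also varied together (r = 0.75, permutation p = 0.00102, adjusted p = 0.0107; rho = 0.76, permutation p = 0.00107, adjusted p = 0.0181). Without the 2 farthest libraries r was 0.61 (permutation test, adjusted p = 0.154) and rho 0.69 (adjusted p = 0.162), so that neither passed over the 14 left. Within PS19 r was 0.88 (permutation test, adjusted p = 0.0848) and rho 0.95 (adjusted p = 0.0228). Pearson r was 0.61 within WT and 0.86 within code letter G. Scaled to the library total r was 0.57 (permutation test, adjusted p = 0.1) and rho 0.52 (adjusted p = 0.167), and scaled to the mature miRNA total they were 0.49 (adjusted p = 0.197) and 0.36 (adjusted p = 0.467). On the deposited values PS19 replicate 1 was the highest library for both.

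miR-133a-3p and miR-133b-3p, whose reads may be assigned to either row, gave r = 0.63 (permutation p = 0.00974, adjusted p = 0.0649) and rho = 0.60 (permutation p = 0.0154, adjusted p = 0.089). Without the 2 farthest libraries this pair passed by r (0.74, permutation p = 0.00272, adjusted p = 0.0272) but not by rho (0.60, adjusted p = 0.177). miR-206-3p and miR-133b-3p, of 1 transcript, gave r = 0.41 (permutation p = 0.11, adjusted p = 0.275) and rho = 0.46 (permutation p = 0.0752, adjusted p = 0.263). The pair of miR-1a-3p and miR-122-5p changed most with the scaling, from r = 0.10 (rho = 0.10, permutation p = 0.712 and 0.707) to r = -0.73 on the mature miRNA total (permutation p = 0.00136, adjusted p = 0.0272; rho = -0.71, permutation p = 0.00298, adjusted p = 0.0425). The remaining pairs had r from 0.22 to 0.42 and adjusted p from 0.275 to 0.535.

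**Figure D4:**
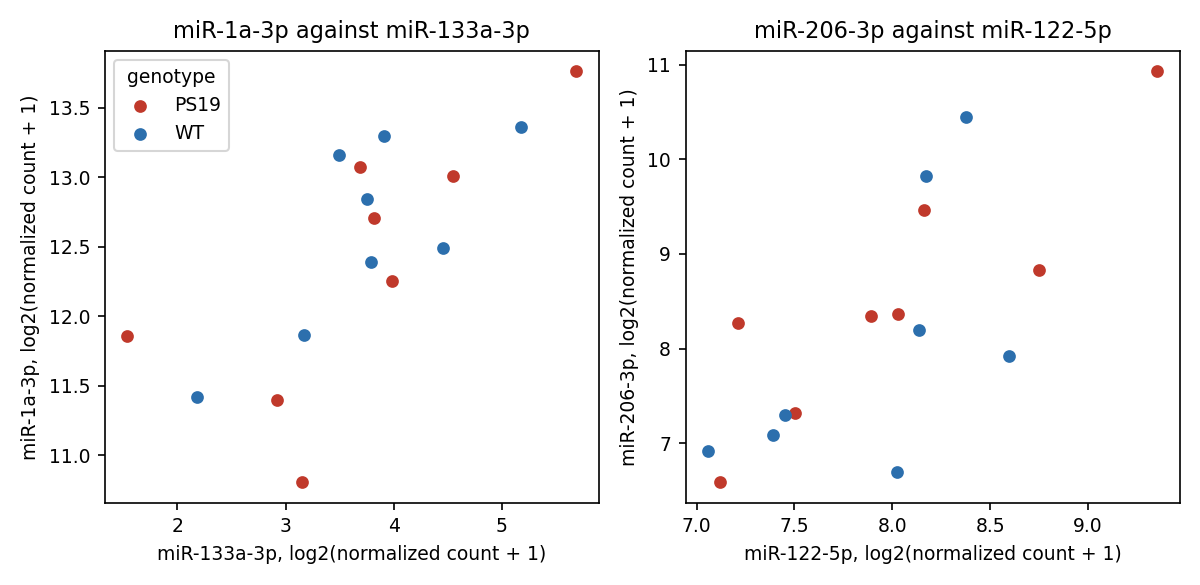
miR-1a-3p against miR-133a-3p (left) and miR-206-3p against miR-122-5p (right), as log2(normalized count + 1), with 1 point per library for 8 PS19 (red) and 8 WT (blue) libraries. Points rise from lower left to upper right in both panels, with r = 0.73 and r = 0.75, and the genotypes are mixed.

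**Figure D5:**
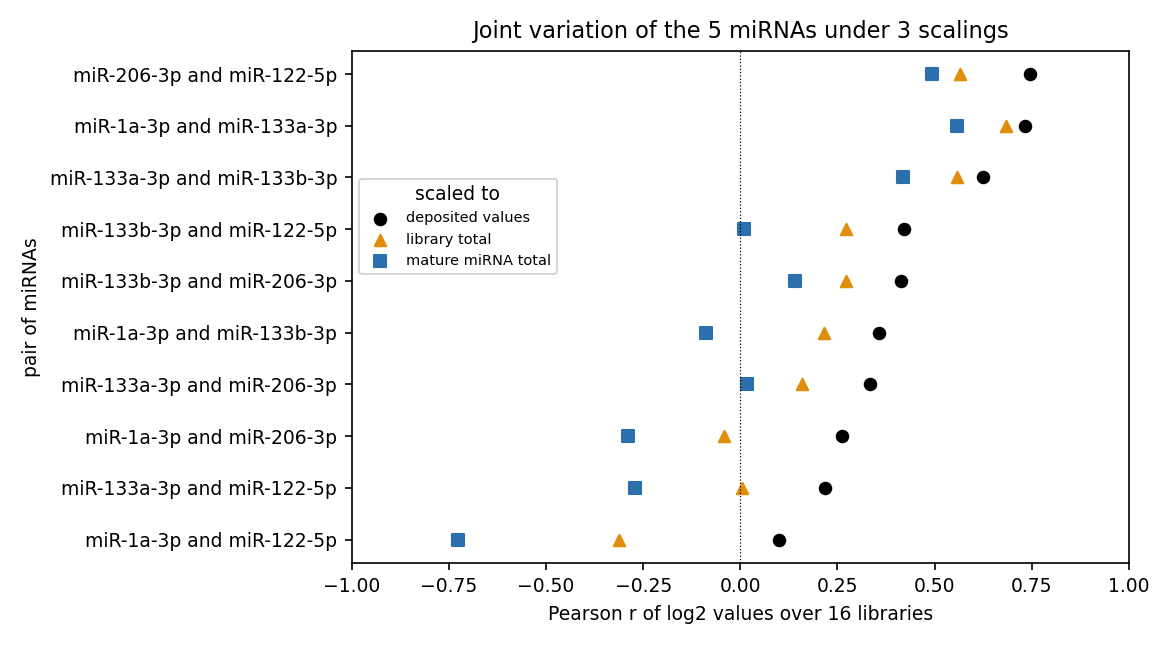
Pearson r over 16 libraries for the 10 pairs under the deposited size factors (black), the library total (orange) and the mature miRNA total (blue). Every pair moved to the left on the mature miRNA total, where miR-1a-3p and miR-122-5p reached -0.73.

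The table held few other rows from the same hairpins. Of 18 names of other arms and precursors, 9 were present and 2 passed the filter. At an unadjusted p under 0.05 limma called 0 of these 2, where it called 4.0% of all features. The precursor rows mir-133a-1 and mir-133a-2 averaged 19.7 and 19.8 normalized counts, beside 15.4 for mature miR-133a-3p. Those of mir-1a-1 and mir-1a-2 had identical values in every library and averaged 4.91, beside 6575 for mature miR-1a-3p. mir-206 averaged 3.12 and mir-122 averaged 1.29. These are counts per row, not scaled to the longer hairpins. miR-133a-5p and miR-1b-3p reached no more than 1.46 and 2.01 in any library. No other row of the table was near-identical to any of the 5 miRNAs (0 rows with r of at least 0.99 and a mean within 2-fold).

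Other miRNAs of muscle and liver were not called either. Of 6 further muscle names 1 had a row, miR-499-5p, made from a myosin heavy chain gene, and its mean was 9.97 ± 6.02 among PS19 and 11.1 ± 7.90 among WT libraries (SD, n = 8 each) (difference -0.03 ± 0.42 SE; limma, adjusted p = 0.9998; exact permutation test, p = 0.953). Of 7 further liver names 5 had a row and 4 were tested, with 0 called at an unadjusted p under 0.05, where limma called 2.88% of mature miRNAs. Their median difference was -0.23 on the log2 scale, beside -0.13 over the tested mature miRNAs. The differences ran from -0.44 for miR-148a-3p to -0.02 for miR-192-5p, beside 0.10 for miR-122-5p. miR-192-5p averaged 904 and miR-194-5p 82.1. miR-148a-3p, which is abundant in liver but not restricted to it, averaged 96262.

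Marker lists of brain cells lay on both sides of the muscle list. The neuron list (5 of 5 present) summed to 203488 to 800897 in PS19 and 279923 to 771328 in WT, nearly all of it miR-128-3p, and the oligodendrocyte list to 18523 to 52341 and 13367 to 46513. miR-138-5p (mean 1048) and miR-137-3p (mean 49.8) of the neuron list were below miR-1a-3p. The choroid plexus list summed to 776 to 6598 in PS19 and 545 to 4152 in WT. The summed skeletal and heart muscle list, with 5 of 7 names present, came to between 2260.0 and 14657 in PS19 libraries and between 2869 and 10708 in WT libraries, most of it miR-1a-3p. The liver list, with 4 of 5 present, came to between 26781 and 188995 in PS19 and between 30446 and 213613 in WT, nearly all of it miR-148a-3p.

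Blood was gauged by 5 red blood cell miRNAs, whose sum lay between 1451 and 2922 in PS19 and between 1283 and 2824 in WT. Almost the whole sum was miR-486a-5p and miR-486b-5p (976 each), near-identical copies that are also known from muscle. miR-451a, the most abundant miRNA of red blood cells, averaged only 15.6, and miR-144-3p averaged 0.343. The list gave r = -0.44 with miR-1a-3p, -0.57 with miR-133a-3p, -0.26 with miR-133b-3p, 0.21 with miR-206-3p and 0.44 with miR-122-5p (permutation p = 0.0869, 0.0204, 0.33, 0.428 and 0.0909, adjusted p from 0.102 to 0.535). Spearman rho was -0.39, -0.59, -0.25, 0.10 and 0.44 (adjusted p from 0.089 to 0.715). Scaled to the library total, r was -0.70 for miR-1a-3p and -0.67 for miR-133a-3p (permutation test, adjusted p = 0.0328 for each), and rho was -0.65 (adjusted p = 0.0557) and -0.73 (adjusted p = 0.0223). Within code letter G both passed by rho (-0.78, permutation test, adjusted p = 0.0498, and -0.83, adjusted p = 0.0475) but not by r (-0.80, adjusted p = 0.0511, and -0.73, adjusted p = 0.0843). Its part in the levels was not tested. The list for microglia and other white blood cells (3 of 3 present) summed to no more than 15.7 in any library. As it covers microglia too, it does not gauge blood alone. Recovered reads gave r from -0.11 to -0.24 with the 5 miRNAs (adjusted p from 0.535 to 0.712) and rho from -0.11 to -0.26. Within PS19 rho was -0.26 for miR-1a-3p, -0.24 for miR-133a-3p, -0.76 for miR-133b-3p, -0.79 for miR-206-3p and -0.83 for miR-122-5p (permutation test, adjusted p from 0.131 to 0.685). Within WT the last 3 were 0.10, 0.02 and 0.31 (permutation test, adjusted p = 0.977 each).

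The 6 remaining marker lists were compared with the 5 miRNAs after the values were seen, 30 relations in all. miR-1a-3p rose and fell with the vessel and smooth muscle list (r = 0.77, permutation p = 0.00049, adjusted p = 0.00735; rho = 0.82, adjusted p = 0.0042), but as much with the neuron list (r = 0.79, adjusted p = 0.00735; rho = 0.81, adjusted p = 0.00465). Scaled to the mature miRNA total these were 0.41 and 0.47. miR-133a-3p gave r = 0.68 with the vessel list (adjusted p = 0.0286; rho = 0.67, adjusted p = 0.0304) and 0.43 on the mature miRNA total. By rho it also passed with the oligodendrocyte list (rho = 0.69, adjusted p = 0.0292; r = 0.54, adjusted p = 0.122) and with the choroid plexus list (rho = 0.62, adjusted p = 0.0416; r = 0.62, adjusted p = 0.066). miR-206-3p gave 0.29 with the vessel list and 0.71 with the oligodendrocyte list (adjusted p = 0.0271; rho = 0.72, adjusted p = 0.0255). On the mature miRNA total these became -0.51 and 0.42. By rho miR-206-3p also passed with the choroid plexus list (rho = 0.68, adjusted p = 0.0292; r = 0.49, adjusted p = 0.17). miR-1a-3p passed by rho with the oligodendrocyte list (rho = 0.63, adjusted p = 0.0416; r = 0.53, adjusted p = 0.136). miR-122-5p passed the test with none of the 6 lists (r from 0.26 to 0.43, rho from 0.26 to 0.53, adjusted p from 0.11 to 0.404). On the mature miRNA total its r turned to -0.35 with the neuron list and -0.37 with the vessel list. The uncalled r of miR-206-3p with the neuron list turned there from 0.32 to -0.40. In the relations that passed, r kept its sign on that scaling. Without the 2 libraries farthest from its median, miR-1a-3p gave r = 0.86 with the vessel list and 0.72 with the neuron list. In the same setting it gave 0.70 with the list for microglia and other white blood cells (0.35 over all 16). These values share the libraries and their size factors, and the part of any cell type was not tested.

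The miRNAs whose pattern over the 16 libraries was most like each of the 4 members that passed the filter were found by Spearman rho among the 521 mature miRNAs, as a description. None were sought for miR-133b-3p. For miR-1a-3p these were miR-24-3p (rho = 0.94), miR-129-1-3p (0.93) and miR-181b-1-3p (0.93), against a median rho of 0.50 over all mature miRNAs. On the mature miRNA total the 3 values were 0.83, 0.81 and 0.71. miR-24-3p averaged 5342, close to miR-1a-3p itself.

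For miR-133a-3p they were miR-101c (0.87), miR-20a-5p (0.85) and miR-17-5p (0.85). The last 2 come from the miR-17-92 cluster, known from dividing cells, and share a seed (in capitals), which differs from that of the miR-133 family shown above.
mmu-miR-17-5p: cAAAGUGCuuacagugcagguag
mmu-miR-20a-5p: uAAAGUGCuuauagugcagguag
RefSeq places them at chr14:115043684-115043706 and chr14:115044183-115044205, on the plus strand. They averaged 22.4 and 31.0 normalized counts, beside 15.4 for miR-133a-3p.

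miR-206-3p was most like both arms of miR-187, miR-187-5p (0.92) and miR-187-3p (0.90), followed by miR-7666-3p (0.85), against a median of 0.41. The likeness to the miR-187 arms held on the mature miRNA total, at 0.93 and 0.84. miR-187-5p ranged from 7.46 to 463 over the libraries and miR-187-3p from 48.3 to 4163, and the SD of log2(normalized count + 1) was 1.78 and 1.96, above the 1.33 of miR-206-3p.

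miR-122-5p was most like miR-501-3p (0.89), miR-409-3p (0.88) and miR-92b-5p (0.87), against a median of 0.49. On the mature miRNA total these were 0.76, 0.79 and 0.75. The points of each comparison share the library and its size factor.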

How the data were processed

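Small RNA libraries (NEBNext, single-end) from prefrontal cortex of 8 PS19 and 8 WT mice were grouped by the genotype in the labels. Per the study's methods and the labels, the authors aligned reads with STAR 2.5.3a in COMPSRA to mm10 and compared genotypes with DESeq2 1.42.1. The deposited signal per library is read counts divided by a size factor, and whole reads were recovered from it (100% of values within 0.01 of a whole multiple of the smallest). For WT replicates 4 and 6, where 1 read is worth nearly 1, this evidence is weaker. The table also holds the authors' own mean signal, log2 fold changes with errors, Wald score and p-values, none of which was used. No column of a library was left out (0 columns). Each library was counted as 1 mouse.

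Genotypes were compared on log2(value + 1), which understates changes of low miRNAs, by limma 3.58.1 (lmFit, eBayes with trend, R 4.3.3) over the 6024 features with a mean of at least 5, two-sided, with Benjamini-Hochberg adjustment over all of them. miR-133b-3p, below the filter, was tested by exact permutation (Python 3.11.15, numpy 2.4.6). Correlations used 100000 resamples, or all orders within a genotype. The fit was tested on simulated data. The named miRNAs are the 5 members, the other rows of their hairpins, further muscle and liver miRNAs, and the 3 mature miRNAs closest by rho to each member that passed the filter. Members and lists were chosen with earlier results of these data known. Alternatives were edgeR 4.0.16, DESeq2 1.42.0, other scalings, filters and pseudocounts, the replicate number, the code letter, and leaving out each library. Tests within code letter G, and the relations with 6 marker lists, were chosen once values had been seen. Recovered reads came to 13.2 M to 23.1 M a library. A p-value measures only the spread between libraries of 1 mouse each, in which error of counting and preparation is included. Mature sequences of 3 members and loci on other chromosomes are not reported here.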

Additional observations from a re-analysis of the deposited data

Results flagged for a closer look

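In 3 of 24 groups of 8 libraries (12 miRNA rows in 2 genotypes) the highest library stood apart from the others by Dixon's test, which chance alone does in about 1 group in 20 where values are normally distributed. The rate for skewed values such as these was not computed. miR-206-3p in PS19 replicate 1 was 1950.3 against 707 in the next library, a gap of 0.670 of the group's range. On the deposited values the same library was the highest in miR-122-5p. miR-133a-3p in PS19 replicate 3 was 50.6 against 22.4, a gap of 0.579 of the range, and that library also held the highest miR-1a-3p and miR-133b-3p. miR-194-2-3p in WT replicate 1 was 44.8 against 22.2, a gap of 0.587 of the range.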

How the results depend on the processing

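The order of the 5 levels, with 3 of 4 neighbouring pairs past the test, held on the library total and without each library. No mean level moved by 1 SD in 18 alternatives, but dropping 1 library cannot do that. Features with an unadjusted p under 0.05 (241) numbered 124 on the mature miRNA total, 680 without a filter, 136 with a mean of at least 20, 419 with the replicate block and 124 with the code letter, and 167 to 322 with 1 library left out. The share of these higher in PS19 was 46.5%, but 58.5% on the library total, 61.3% on the mature miRNA total and 56.6% with edgeR. Mature miRNAs with an unadjusted p under 0.05 (15) numbered 23 with edgeR, 25 with DESeq2, 23 on the mature miRNA total, 51 without a filter, 4 with a mean of at least 20, 40 with the replicate block and 6 with the code letter, and 11 to 37 with 1 library left out (33 without PS19 replicate 1, 26 without WT replicate 6, 37 without WT replicate 7). At an adjusted p, 15 features passed with DESeq2 and 0 elsewhere.

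Differences (PS19 minus WT, log2) that turned were uncalled before and after. miR-133a-3p was 0.13 with edgeR and 0.12 with DESeq2, and ran from -0.36 to 0.23 with 1 library left out (0.0012, 0.23, 0.033, 0.029 and 0.13 without PS19 replicates 5, 6 and 8 and WT replicates 2 and 4). miR-122-5p ran from -0.093 to 0.23 (-0.093, -0.0062 and -0.020 without PS19 replicates 1 and 5 and WT replicate 7). miR-206-3p was -0.045 both with the code letter and within letter G, and 0.12 to 0.81 with 1 library left out. miR-1a-3p, which did not turn, ran from -0.44 to -0.023 with 1 library left out and was -0.57 both with the code letter and within letter G. miR-133b-3p was 0.77 on the mature miRNA total (exact permutation p = 0.0476), 0.27 and 0.83 with pseudocounts of 5 and 0.5, 0.43 to 0.85 with 1 library left out, and -0.66 within letter G. It had no value with edgeR, DESeq2, a mean of at least 20 or the code letter as a term, and miR-133a-3p none with a mean of at least 20, because they fell below the filter. The causes were not tested.

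By Pearson r, 2 of the 10 pairs passed on the deposited values, 1 of these on the library total (miR-1a-3p and miR-133a-3p), 0 within PS19, 0 within WT and 1 within letter G (miR-206-3p and miR-122-5p). On the mature miRNA total neither did and 1 other pair passed (miR-1a-3p and miR-122-5p, -0.73). Without the 2 farthest libraries 2 passed, miR-1a-3p with miR-133a-3p and miR-133a-3p with miR-133b-3p. By rho miR-1a-3p with miR-133a-3p also passed on the mature miRNA total and within letter G, miR-206-3p with miR-122-5p within PS19, and no pair without the 2 farthest. Of the 5 relations with the blood list, 0 passed by r, but 2 did on the library total. Other, uncalled r that turned sign were, on the library total, -0.042 (miR-1a-3p and miR-206-3p) and -0.31 (miR-1a-3p and miR-122-5p), and on the mature miRNA total -0.088 (miR-1a-3p and miR-133b-3p), -0.29 (miR-1a-3p and miR-206-3p) and -0.27 (miR-133a-3p and miR-122-5p). With the blood list, r was 0.029 for miR-1a-3p within WT, and for miR-206-3p -0.25, -0.084 and -0.12 on the library total, on the mature miRNA total and without the 2 farthest libraries. With recovered reads, r was 0.075 and 0.070 for miR-133b-3p within WT and without the 2 farthest libraries, 0.17 for miR-206-3p within WT, and for miR-122-5p 0.26 within WT and 0.0092 without the 2 farthest libraries.

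The labels do not tie a replicate number to a litter or batch. Deviations of same-numbered libraries correlated from 0.0446 to 0.456, over 0.1 in 6 of 8 pairs, and 4 of 16 libraries correlated best with their own number, a hint from the data and not from the design. With the replicate block the differences were 0.47 for miR-206-3p and 0.65 for miR-133b-3p, and none of the 5 was called. Counting error was a large part of the spread of miR-133b-3p.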
